A study of Mus musculus with 32 samples.

Results

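The measurements below concern how far a high-fat diet changed the transcript response of the mouse liver to fasting. The genes were taken from 1 hepatic count table and tested by a single contrast: the fasting response on the high-fat diet (HF) minus the fasting response on the low-fat control diet (LF), averaged over wild-type (WT) and Acadm-knockout (KO) mice. Of 20076 genes in the table, 11566 had enough counts to be tested, and 285 of these, or 2.46%, passed an adjusted p of 0.05 in edgeR's quasi-likelihood test. The study sequenced liver RNA of 32 male C57BL/6J mice, KO animals lacking medium-chain acyl-CoA dehydrogenase throughout the body and WT littermates. They were kept on a semisynthetic LF or HF diet (fat from palm oil) for 6 weeks. They were then either fed until sampling or fasted for 16 h with food removed just before the dark phase. 30 mice entered the comparison. The LF fed group held 7 mice (3 WT, 4 KO), the LF fasted group 8 (4 WT, 4 KO), the HF fed group 8 (4 WT, 4 KO) and the HF fasted group 7 (4 WT, 3 KO). The labels give ages of 7.5 to 16 without a unit. The libraries left out were replicate 4 of the KO HF fasted mice and replicate 2 of the WT LF fed mice. The first had a summed level of heart and muscle markers of 40110 CPM and of hepatocyte markers of 1157 CPM. CPM of summed markers are counts scaled by library size alone, and CPM of single genes are counts scaled by TMM library size. The second had 807 CPM of proliferation markers, against at most 148.1 CPM in the mice used.

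Fasting turns the liver from storing fuel to supplying it. Fatty acids released from adipose tissue enter hepatocytes and activate PPARα, the nuclear receptor that switches on genes of fatty acid oxidation and ketone body formation, while falling insulin withdraws the drive on SREBP-1c and ChREBP, the transcription factors of lipid synthesis. Glucocorticoids and glucagon raise genes that break down amino acids and make glucose, and feeding raises the machinery that folds and exports secreted proteins. A diet rich in fat also brings fatty acids to the liver in the fed state.

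The libraries counted 3′ ends of transcripts, and totals ran from 2031053 to 4292200 counts per mouse with a median of 2899001. Acadm, the targeted gene, had 566 to 2752 counts in the 16 WT libraries and 26 to 94 in the 16 KO libraries, so the 2 sets of labels did not overlap. The 10 hepatocyte markers summed to 66010 to 94950 CPM in the 30 mice. Acinar pancreas markers reached 19150 CPM in WT HF fasted replicate 2 and 2857 CPM in KO HF fed replicate 1, while no other mouse exceeded 55.64 CPM, and their part in the results was not tested. Without both of these mice 156 genes passed, 153 of them among the 285. With the proliferation library put back 152 passed, and with both left-out libraries put back 22 passed, all of them among the 285. As these are pieces of liver, fewer cells of a type and less RNA per cell cannot be told apart.

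Most genes that responded to fasting changed less on HF than on LF. In the LF mice 2247 genes changed on fasting (19.4% of those tested), 1159 upward (10.0%) and 1088 downward (9.41%), and in the HF mice 303 genes changed (2.62%), 165 upward (1.43%) and 138 downward (1.19%). The LF and HF contrasts share no mice and have 15 mice each. Counts past a threshold do not compare sizes, so genes were also picked by their mean fasting response over both diets, which favours neither. Of 2187 such genes (18.9%), 1953 (89.3%) had a smaller fold change on HF and 234 a larger one. Changes were taken in the direction of the mean response, so a change on HF in the other direction counted as smaller. The median change in the direction of the mean response was 0.78 on the log2 scale in the LF mice and 0.36 in the HF mice. The response was smaller on HF for 1021 of 1130 genes that rose and for 932 of 1057 that fell.

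Among the 285 genes with a diet-dependent response, 139 rose more on LF fasting than on HF fasting and 146 fell more. For no gene was the change larger on HF in the same direction. The shares of all tested genes were 1.20% for a negative contrast, a rise that was smaller on HF, and 1.26% for a positive one. The 139 had a median log2 fold change of 1.44 in LF mice and 0.275 in HF mice. The 146 had medians of -1.25 and -0.198. In 212 genes both diets moved the gene in the same direction by different amounts, and in 73 the fitted HF change had the opposite sign. In 5 of these 73, Klc4, Ifit1, Iigp1, Slc25a15 and Gstk1, the HF change was the larger in size. Of the 73 only Klc4, a kinesin light chain, and Ifit1, an interferon-induced gene, passed the test for fasting on HF itself. Klc4 changed by 0.13 on LF and -0.56 on HF (adjusted p = 0.0107), and Ifit1 by -0.10 and 1.43 (adjusted p = 0.0033). Scaling by library size alone in place of TMM factors moved the median contrast of all genes from -0.0086 to 0.0889 on the log2 scale, and the calls from 146 positive and 139 negative to 204 and 103.

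**Figure D1:**
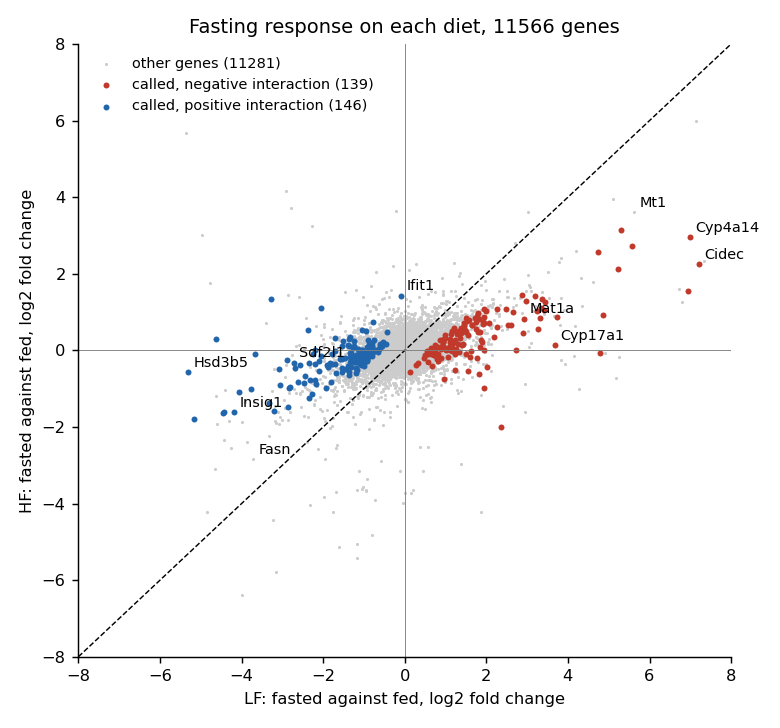
Fasting log2 fold change in LF mice (x axis) and in HF mice (y axis), 1 point per gene of the 11566 tested, with the 285 genes that differed between diets coloured by the sign of the difference and the line of equal response drawn. For 212 of the 285 the HF response has the direction of the LF response and is smaller, and 1 gene lies outside the axes.

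Genes of fatty acid oxidation and other PPARα targets were among the rises that were smaller on HF. Of 18 mitochondrial fatty acid oxidation genes, 15 rose on LF fasting and 11 on HF fasting, and the contrast was below 0 for all 18, with a median of -0.52 on the log2 scale against -0.0086 for all genes tested. In 5 of the 18 the difference between diets passed the test. These were Cpt1a, which forms acylcarnitine at the outer mitochondrial membrane, Slc25a20, which carries acylcarnitine across the inner one, Cpt2, which turns it back to acyl-CoA, Slc22a5, the carnitine transporter of the cell surface, and Acadl, an acyl-CoA dehydrogenase. Cpt1a stood at 146.1 to 192.2 CPM in LF fed mice (median 158.9) and 423 to 775.2 CPM in LF fasted mice (median 571.3). It stood at 170.6 to 269.9 CPM in HF fed mice (median 237.7) and 236.7 to 645.1 CPM in HF fasted mice (median 495.1). The fasted groups overlapped between diets, while LF fed and LF fasted mice did not. The fitted log2 fold change of Cpt1a on fasting was 1.81 on LF and 0.99 on HF, a difference of -0.82 ± 0.231 (SE, adjusted p = 0.047). This call was near its limit: it held in 9 of 30 fits that left out 1 mouse and had its largest adjusted p, 0.0945, without WT LF fed replicate 3. Slc22a5 rose by 2.97 on LF and 1.29 on HF (adjusted p of the difference = 0.00223), and Slc25a20 by 1.53 and 0.77 (adjusted p = 0.00759). Both of these held in all 30 such fits. For Slc22a5 the fed groups did not overlap between diets, while its fasted groups did. For Slc25a20 the fasted groups did not overlap between diets, while its fed groups did.

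In peroxisomal oxidation and omega-hydroxylation 6 of 20 genes passed, all with the smaller rise on HF, and the median contrast was -0.92. Cyp4a14, a fatty acid omega-hydroxylase and a classical PPARα target, stood at 53.54 to 610.8 CPM in LF fed mice (median 146.9) and 12720 to 41730 CPM in LF fasted mice (median 20900). In the HF fed mice it stood at 91.04 to 2372 CPM (median 891.5), and in the HF fasted mice at 1111 to 12020 CPM (median 7758). Every LF fasted mouse was above every HF fasted mouse, and the HF fed and HF fasted mice overlapped. Its log2 fold change was 6.98 on LF and 2.95 on HF, a difference of -4.03 ± 0.854 (SE, adjusted p = 0.0116). With the proliferation library put back the adjusted p was 0.0945. The related Cyp4a31 and Cyp4a10 rose by 5.57 and 5.30 on LF and by 2.74 and 3.15 on HF. Reads of the Cyp4a genes, and of the acyl-CoA thioesterases Acot1 and Acot3, may be split between near-identical copies. Acaa1a, the peroxisomal thiolase, shares annotated sequence with Myd88 on the other strand, and whether the counting used strand is not given in the sources used here. 6 of 20 other PPARα targets passed as well, with a median of -0.69. They included Acot1 at 4.74 on LF and 2.58 on HF, and Angptl4, an inhibitor of lipoprotein lipase, at 2.87 and 1.45. Without the 2 mice with pancreas transcripts 2 genes passed in each of these 3 lists, with medians of -0.447, -0.792 and -0.469. Without KO HF fasted replicate 1 the counts were 2, 2 and 3. These were the lowest counts in any fit without 1 mouse, and 2, 8 and 2 of the 30 fits reached them. The calls for Acadl, Acaa1a, Pex11a, Acot3, Cyp4a10 and Angptl4 held in 11, 15, 13, 13, 12 and 14 of the 30 fits without 1 mouse.

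Lipid droplet genes with smaller rises on HF included Plin5 and Cidec. Plin5 (ENSMUSG00000011305, chr17:56111601-56117596), a coat protein that ties lipid droplets to mitochondria, stood at 31.52 to 44.12 CPM in LF fed mice (median 42.15) and at 133.7 to 370.6 CPM in LF fasted mice (median 221.6). The HF fed mice had 33.98 to 64.58 CPM (median 51.86) and the HF fasted mice 43.26 to 107.3 CPM (median 76.53). All LF fasted mice were thus above all HF fasted mice. Plin5 rose by 2.53 on the log2 scale on LF, and its change on HF of 0.65 missed the threshold (adjusted p = 0.059), a difference of -1.88 ± 0.272 (SE, adjusted p = 0.000104). Pnpla2, which encodes the triglyceride lipase ATGL, rose by 2.08 on LF and 0.72 on HF (adjusted p of the difference = 0.00411). Cidec, a droplet fusion protein, was barely counted in LF fed mice (0 to 6 counts, 0 to 1.935 CPM) and stood at 12.66 to 176 CPM in LF fasted mice (median 127). It reached 1.129 to 48.19 CPM in HF fasted mice (median 26.77), which overlapped both the LF fasted and the HF fed mice. Its fitted change of 7.22 on LF rests on counts near the floor, and its call was lost in voom (adjusted p = 0.32). In the list of triglyceride synthesis, droplets and lipolysis, Plin5, Pnpla2 and Hsd17b13 passed (Hsd17b13 in 16 of 30 fits without 1 mouse), with a median of -0.48 over the 21 genes. Plin2, the general droplet coat, did not (difference -0.62, adjusted p = 0.509).

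**Figure D2:**
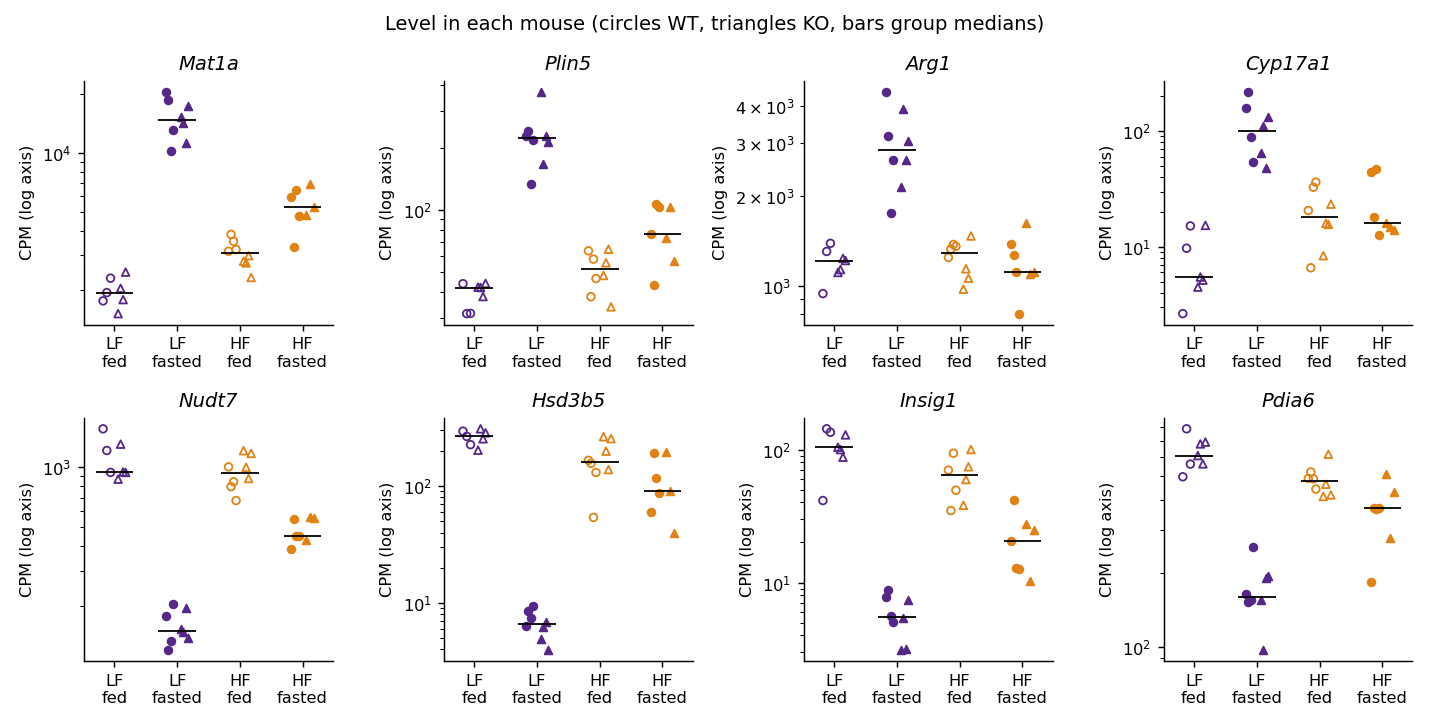
CPM of 8 genes in each of the 30 mice on log axes, grouped by diet and feeding state, with circles for WT, triangles for KO and bars for group medians. The upper genes rise and the lower genes fall on LF fasting. Most HF fasted mice lie between the LF fasted and the fed mice or among the fed mice. For Pdia6 the HF fasted mice overlap the LF fasted ones, and for Arg1 they reach below all fed mice.

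In amino acid breakdown and the urea cycle, 10 of 27 genes passed, all with the smaller rise on HF, and the contrast was below 0 for 26 of the 27 with a median of -0.67. On LF fasting 15 rose and 1 fell, while on HF fasting 2 rose and 2 fell. Mat1a (ENSMUSG00000037798, chr14:41105035-41124412), which makes S-adenosylmethionine from methionine in hepatocytes, had the smallest p among the rises. It stood at 1508 to 2459 CPM in LF fed mice (median 1932) and 10260 to 20500 CPM in LF fasted mice (median 14750). It stood at 2309 to 3836 CPM in HF fed mice (median 3065) and at 3319 to 6977 CPM in HF fasted mice (median 5294). No LF fasted mouse overlapped any HF fasted mouse. The log2 fold change was 2.93 ± 0.16 on LF and 0.83 ± 0.145 on HF, a difference of -2.11 (95% confidence interval -2.53 to -1.69, adjusted p = 3.03e-08). Mat1a was 0.63 higher on the log2 scale in HF fed than in LF fed mice (adjusted p = 0.0431).

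Arg1 (ENSMUSG00000019987, chr10:24915221-24927484), the arginase that releases urea, rose by 1.32 on LF and had a change of -0.04 on HF. The levels were 939.8 to 1385 CPM in LF fed mice (median 1213), 1748 to 4453 CPM in LF fasted mice (median 2847), 972.1 to 1466 CPM in HF fed mice (median 1284) and 804.9 to 1624 CPM in HF fasted mice (median 1114). The LF fasted mice stood apart from all 3 other groups, which overlapped one another. The difference was -1.36 (95% confidence interval -1.80 to -0.92, adjusted p = 0.000237). Asl, the urea cycle enzyme before arginase, rose by 1.87 on LF against 0.27 on HF (adjusted p of the difference = 0.00608). Sdsl, a serine dehydratase-like enzyme, rose by 1.88 against 0.21 (0.00615), Tdo2, which opens the tryptophan ring, by 1.19 against 0.21 (0.00415), Aass of lysine breakdown by 1.79 against 0.48 (0.00847), and the alanine transaminase Gpt2 by 1.54 against 0.40 (0.000456), with the adjusted p of the difference in parentheses. The HF values of these 5 genes did not pass the test. The calls for Gpt, Got1 and Csad held in 8, 11 and 19 of the 30 fits that left out 1 mouse. Without the 2 mice with pancreas transcripts 7 of the 27 passed.

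Por, Cyp17a1 and Slc16a5 had large rises outside these pathways. Por (ENSMUSG00000005514, chr5:135670033-135735326), which passes electrons to the microsomal cytochromes P450, stood at 23.55 to 42.25 CPM in LF fed mice (median 28.16) and 166.5 to 420.6 CPM in LF fasted mice (median 336.3). The HF fed mice had 33.67 to 56.94 CPM (median 45.53) and the HF fasted mice 59.06 to 153.2 CPM (median 124.8). Here all 4 groups but the LF fed and HF fed ones stood apart from each other, so the rise on HF was present but smaller, 1.35 against 3.37 on LF (difference -2.02 ± 0.28 SE, adjusted p = 7.99e-05). Cyp17a1 (ENSMUSG00000003555, chr19:46667165-46673172), a steroid hydroxylase and lyase, rose by 3.69 on LF and had a change of 0.14 on HF (adjusted p of the difference = 0.00247). Its LF fasted mice, at 48.53 to 217.8 CPM (median 100), were all above the HF fasted mice, at 12.71 to 47.25 CPM (median 16.1). Adrenal cortex, which also makes steroids, has 8 markers that could be tested, and 7 of them had a contrast below 0. Of these 8, 0 passed in edgeR, DESeq2 and voom, and 2 had an unadjusted p under 0.05 in edgeR. The 9 adrenal markers in the table summed to 217.2 to 262.1 CPM in LF fed mice (median 227.8) and 79.97 to 457.4 CPM in LF fasted mice (median 152.5), the highest in KO LF fasted replicate 3. The sums were 169 to 311.9 CPM in HF fed mice (median 225.1) and 140.2 to 222 CPM in HF fasted mice (median 200.5). In LF fed mice Fdx1, the 1 marker with a contrast above 0 (0.345), had 524 to 884 counts, and no other adrenal marker exceeded 7. Among the defining markers, the side-chain cleavage enzyme Cyp11a1 was at 0 counts in all LF fed mice and in 6 of the 8 LF fasted mice. It reached 53 counts in LF fasted, 22 in HF fed and 16 in HF fasted mice. The part of the adrenal markers in the Cyp17a1 values was not tested. Slc16a5, a member of the monocarboxylate transporter family, was at 0 to 6 counts in LF fed mice and already at 3.206 to 18.17 CPM in HF fed mice, against at most 1.935 CPM in LF fed ones. The difference of the fed groups was 3.04 on the log2 scale (adjusted p = 0.000563), and the difference of its fasting responses -3.94 (adjusted p = 7.99e-05). Both are fitted against values near the floor, and with the proliferation library put back the adjusted p of the second was 0.162.

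The genes that fell were led by Nudt7 and Hsd3b5. Nudt7 (ENSMUSG00000031767, chr8:114133557-114154739), a peroxisomal enzyme that hydrolyses CoA and acyl-CoA, stood at 867.9 to 1552 CPM in LF fed mice (median 942.6) and 120.3 to 206.3 CPM in LF fasted mice (median 151.1). It stood at 678.1 to 1206 CPM in HF fed mice (median 935.1) and 385.9 to 558.3 CPM in HF fasted mice (median 452.2). Fed mice of both diets overlapped, and the LF fasted mice were all below the HF fasted ones. Nudt7 fell by 2.81 on the log2 scale on LF and by 0.95 on HF, a difference of 1.86 (95% confidence interval 1.48 to 2.24, adjusted p = 3.03e-08). Hsd3b5 (ENSMUSG00000038092, chr3:98618634-98630252), a male-biased ketosteroid reductase under growth hormone control, fell by 5.31 on LF and had a change of -0.57 on HF (adjusted p = 0.42). Its levels were 203.1 to 309.8 CPM in LF fed mice (median 266.6), 3.91 to 9.364 CPM in LF fasted mice (median 6.595), 53.93 to 265.1 CPM in HF fed mice (median 161.5) and 39.79 to 195.5 CPM in HF fasted mice (median 90.22). The lowest HF fasted mouse was above the highest LF fasted one, and the HF fed and HF fasted mice overlapped. Hsd3b5 belongs to a family of close copies whose reads the counting may split. Of 19 genes of the growth hormone axis and male-biased expression, 3 passed: Hsd3b5, the growth hormone receptor Ghr (difference 0.73, adjusted p = 0.0395, called in 12 of 30 fits without 1 mouse) and Serpina12, the serpin known as vaspin (2.23, adjusted p = 0.000244). The call for Serpina12 was lost with the proliferation library put back (adjusted p = 0.106) and with all 32 mice (0.324). The median of the list was 0.29.

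In cholesterol synthesis and uptake, 21 of 24 genes fell on LF fasting and 15 on HF fasting, with medians of -2.34 and -1.27. The contrast was above 0 for 21 of the 24 (median 0.95), and 5 passed. Insig1 (ENSMUSG00000045294, chr5:28071363-28078662), a sterol-sensitive anchor that holds SREBP in the endoplasmic reticulum and is itself an SREBP target, stood at 41.34 to 143.2 CPM in LF fed mice (median 104.1) and 3.089 to 8.825 CPM in LF fasted mice (median 5.507). The HF fed mice had 34.77 to 100 CPM (median 64.74) and the HF fasted mice 10.21 to 41.38 CPM (median 20.65). The fasted groups did not overlap between diets. Insig1 fell by 4.19 on LF and by 1.61 on HF, a difference of 2.58 ± 0.464 (SE, adjusted p = 0.00309). Stard4, a sterol carrier, fell by 2.83 on LF and by 0.97 on HF (adjusted p of the difference = 1.52e-05), with 11.08 to 23.54 CPM in LF fasted and 33.14 to 104.6 CPM in HF fasted mice. Sc5d, a late enzyme of the pathway, fell by 2.35 and by 1.24 (0.00994). Sqle, the squalene epoxidase, passed near the threshold (0.0421) and held in 11 of the 30 fits without 1 mouse, with the largest adjusted p, 0.142, without KO HF fasted replicate 3. Without the 2 mice with pancreas transcripts 3 of the 24 passed, with a median of 0.659.

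Genes of fatty acid synthesis fell on both diets, and the difference between diets passed for 1 of 16. On LF 13 of them fell and on HF 13, with median log2 fold changes of -1.67 and -1.63. Fasn, the fatty acid synthase, stood at 83.67 to 184.6 CPM in LF fasted mice (median 119.5) and 54.81 to 256.5 CPM in HF fasted mice (median 109.9), which overlapped. It fell by 3.71 on LF and by 2.85 on HF. The difference of 0.86 had a 95% confidence interval of -0.33 to 2.05, which covers both signs. Acly, which makes cytosolic acetyl-CoA, had a difference of 1.07 (0.23 to 1.91, adjusted p = 0.212), and Srebf1, which encodes SREBP-1, of 1.33 (0.45 to 2.21, adjusted p = 0.111). Gene by gene the contrast was above 0 for 13 of the 16, with a median of 0.79, although the medians of the list on each diet were close. The gene that passed was Mlxipl, which encodes ChREBP and fell by 1.36 on LF and by 0.55 on HF (adjusted p of the difference = 0.00247, and 0.144 with the proliferation library put back). Of 9 desaturases and elongases 0 passed in edgeR's test, in DESeq2 and in voom, and 0 had an unadjusted p under 0.05, with a median of 0.06. Angptl8, an insulin-induced secreted inhibitor of lipoprotein lipase, fell by 3.08 on LF and had a change of -0.49 on HF (adjusted p of the difference = 0.00998), but it shares annotated sequence with Dock6.

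**Figure D3:**
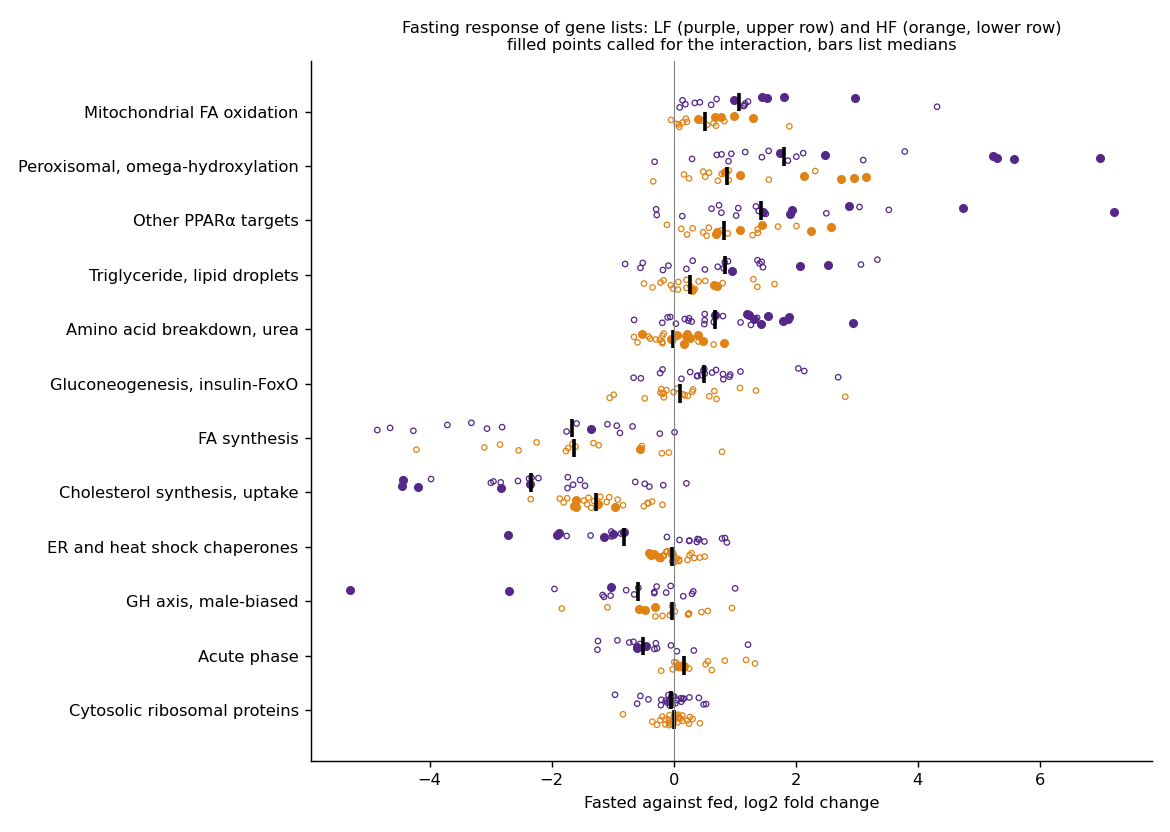
Median fasting log2 fold change of 12 gene lists in LF mice (purple) and in HF mice (orange), with 1 point per gene, filled where the difference between diets passed, and bars for medians. Fatty acid synthesis has medians of -1.67 and -1.63, and the amino acid and endoplasmic reticulum lists lie near 0 on HF.

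Chaperones of the endoplasmic reticulum fell on LF fasting. Of 23 genes of the endoplasmic reticulum and heat shock families, 12 fell on LF and 3 rose, the cytosolic Hspa8 and the mitochondrial Hspd1 and Hspe1. On HF 0 passed in edgeR, DESeq2 and voom, and 2 had an unadjusted p under 0.05 in edgeR. The median was -0.82 on LF and -0.0265 on HF. The contrast was above 0 for 13 and below 0 for 10, and 6 passed, all positive: Pdia6 and the related folding factors Hsp90b1, Dnajb11, Sdf2l1, Hyou1 and Calr, which fold and hold proteins entering the secretory pathway. Pdia6 (ENSMUSG00000020571, chr12:17266545-17284770), a disulfide isomerase, stood at 498.2 to 783.9 CPM in LF fed mice (median 608.4) and 96.58 to 255.4 CPM in LF fasted mice (median 160.2). It stood at 413.6 to 616.3 CPM in HF fed mice (median 476.5) and at 184.4 to 512.4 CPM in HF fasted mice (median 369.8). The fasted groups overlapped between diets, as did the fed and fasted HF mice. Pdia6 fell by 1.87 on LF and had a change of -0.41 on HF, a difference of 1.46 ± 0.228 (SE, adjusted p = 0.000171). Sdf2l1 fell by 2.72 on LF, against a value of -0.33 on HF (adjusted p of the difference = 0.00864), and Calr by 1.15 against -0.24 (0.00411). The call for Hsp90b1 (difference 0.78, adjusted p = 0.0392) held in 13 of 30 fits without 1 mouse, and was lost without the 2 mice with pancreas transcripts, where 4 of the 23 genes passed.

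The endoplasmic reticulum stress element, through which ATF6 and its partners act on chaperone genes, is a CCAAT box and CCACG spaced by any 9 bases. Searched on both strands in RefSeq windows of mouse promoters (GRCm38.p6, 250 bases before to 50 after the start), it was found in 37 of 27025 promoters, or 0.137%, and in 15 of the 8757 tested genes with a window, or 0.171%. In the chaperone list it was found in 5 of 18 genes with a window, and in 3 of the 5 called members with one. The windows of these 3 genes are shown because they carry the letters and their calls have the same sign. Members of the list without a call carried the letters as well. Each is read on the strand of its gene, with the match in capitals, which starts with CCAAT where it lies on the gene's strand and ends with the complement ATTGG where it does not.
Pdia6, chr12:17266451-17266549 (plus strand): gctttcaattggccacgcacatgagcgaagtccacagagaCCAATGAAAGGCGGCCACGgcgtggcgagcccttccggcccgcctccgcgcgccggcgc
Calr, chr8:84847035-84847133 (minus strand): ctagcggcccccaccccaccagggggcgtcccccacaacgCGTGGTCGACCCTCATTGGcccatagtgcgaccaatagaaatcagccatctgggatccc
Hsp90b1, chr10:86705493-86705591 (minus strand): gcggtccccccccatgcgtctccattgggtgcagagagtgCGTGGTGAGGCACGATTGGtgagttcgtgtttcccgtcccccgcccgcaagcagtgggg
Hsp90b1, second match, chr10:86705598-86705694 (minus strand): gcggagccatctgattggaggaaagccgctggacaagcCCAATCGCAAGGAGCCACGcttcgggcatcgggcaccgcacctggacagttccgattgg
Over all 117 genes with a positive difference and a window the motif was found in 3, and over the 108 with a negative one in 1. The E-box CACGTG was found in 16 of the 117 (13.7%) and 14 of the 108 (13.0%), near the 12.0% of all tested genes. The core of the sterol regulatory element, TCACNCCAC, through which SREBP acts, was found in 5 of the 117 (4.27%) and 1 of the 108 (0.926%), with 1.52% of all tested genes. In the cholesterol list it was found in 1 of 16 genes with a window and in 0 of the 2 called ones. The FoxO motif GTAAACA was found in 3 of the 117 (2.56%) and 3 of the 108 (2.78%), with 3.41% of all tested genes. The cyclic AMP response element TGACGTCA was found in 1 of each (0.855% and 0.926%), with 3.57% of all tested genes. A direct repeat of AGGNCA, the hexamer that PPAR receptors read in pairs, with 1 base between the copies was found in 0 of the 117, in 0 of the 108 and in 0 of 16 mitochondrial oxidation genes, with 0.343% of all tested genes. The repeat was found in 0 of 13 peroxisomal genes and in 1 of 17 other PPARα targets with a window. Of the 4 called other PPARα targets with a window, 0 carried it. These 6 motifs were searched on both strands, and the stress element and the direct repeat were chosen after the gene groups had been seen. A match describes letters and is not a bound site.

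Of 22 genes of gluconeogenesis and insulin-FoxO targets 0 passed in edgeR's test and in voom and 1 in DESeq2, and 3 had an unadjusted p under 0.05 in edgeR. On fasting 8 rose on LF and 2 on HF, and the median difference was -0.44. The contrast was below 0 for 18 of the 22 and above 0 for 4. Between diets 6 of the 22 differed in fasted mice and 0 in fed mice, with 6.65% and 0.268% of all tested genes. Pck1, the key enzyme of gluconeogenesis, had a difference of -0.96 with a 95% confidence interval of -1.97 to 0.06. Igfbp1, a secreted binder of insulin-like growth factors, had -0.79 (-2.13 to 0.55). Among 26 genes of glucose uptake, glycolysis and glycogen, Ppp1r3c, which targets phosphatase to glycogen, had a positive difference (1.70, adjusted p = 0.0384, called in 12 of 30 fits without 1 mouse). Of 12 bile acid genes 4 passed, the synthesis enzyme Cyp8b1 and the phospholipid exporter Abcb4 with smaller rises on HF, and the bile salt exporter Abcb11 and the bile-acid-induced repressor Nr0b2 with smaller falls. Cyp8b1 rose by 1.81 on LF and by 0.81 on HF, and Nr0b2 fell by 1.79 on LF against a value of -0.08 on HF. Of 8 bile duct and gallbladder markers 5 could be tested, all 5 had a contrast above 0, and Spp1 passed in edgeR, DESeq2 and voom (1.06, adjusted p = 0.0285). The 8 summed to 65.91 to 97.19 CPM in LF fed mice (median 88.92), 46.45 to 61.99 CPM in LF fasted mice (median 52.45), 59.61 to 74.18 CPM in HF fed mice (median 68) and 61.9 to 143.3 CPM in HF fasted mice (median 72.85), the highest in WT HF fasted replicate 2. The duct keratin Krt19 had at most 18 counts in any mouse, and the part of these markers in the bile acid genes was not tested. The call for Spp1 held in 26 of the 30 fits without 1 mouse. It was lost with the proliferation library put back (adjusted p = 0.0905) and without the 2 mice with pancreas transcripts (0.0596). Of 25 regulators of lipid metabolism 5 passed: Mlxipl, Insig1 and the SREBP escort Scap with positive differences, Nr1i3 and Insig2 with negative ones. Of 15 apolipoprotein genes Apoa4 passed, rising by 3.27 on LF against a value of 0.56 on HF.

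The 3 fibrinogen chains Fga, Fgb and Fgg passed among 16 acute phase genes, with differences of 0.68, 0.63 and 0.76, but in 10, 16 and 18 of the 30 fits without 1 mouse, and their calls were lost without the 2 mice with pancreas transcripts and with the proliferation library put back. Metallothionein Mt1 rose on both diets, by 5.63 on LF and by 3.61 on HF, with no call for the difference (-2.02, adjusted p = 0.166). In the same list of 19 metallothioneins and stress-inducible genes, 4 passed with smaller rises on HF, among them the cell cycle inhibitor Cdkn1a at 3.41 on LF against 1.04. Of 12 NRF2 and glutathione genes, Nqo1 and Srxn1 passed, and of 20 drug-metabolizing P450 genes with their reductase, Por, Cyp17a1 and Cyp3a13 did, with Nqo1 and Cyp3a13 called in 13 and 16 of the 30 fits without 1 mouse. Per1 was the only called gene of 19 in the circadian clock (-2.24, adjusted p = 0.04, called in 9 of 30 fits without 1 mouse). Of 29 cytosolic ribosomal protein genes (median -0.02) and 33 nuclear oxidative phosphorylation genes (median -0.17) 0 passed in edgeR, DESeq2 or voom, and 1 and 3 had an unadjusted p under 0.05 in edgeR.

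For most of the 285 genes the diet difference was larger in the fasted than in the fed mice. Among the 285 genes the diet changed 212 in the fasted state and 12 in the fed state, against 769 genes (6.65%) and 31 genes (0.268%) of all tested. The diet difference was larger in size in the fasted state for 222 and in the fed state for 63. The rises that were smaller on HF had a median HF against LF difference of 0.378 in fed mice and -0.724 in fasted mice. The falls that were smaller had medians of -0.252 and 0.851. Over whole lists, mitochondrial oxidation had a median HF against LF difference of 0.318 in fed and -0.317 in fasted mice. Peroxisomal oxidation and omega-hydroxylation had 0.548 and -0.372, and other PPARα targets 0.397 and -0.289. In these lists 0, 1 and 1 genes passed in fed mice, and 6, 4 and 6 in fasted mice. Amino acid breakdown and the urea cycle had medians of 0.0998 and -0.55. The CPM of all LF fasted mice and all HF fasted mice did not overlap for 71 of the 285 (24.9%), against 146 of all tested genes (1.26%), and the fed groups did not overlap for 15 (5.26% against 0.372%). Fed and fasted mice did not overlap for 206 of the 285 on LF (72.3%, against 5.91% of all tested genes) and for 18 on HF (6.32%, against 0.700%). As all of these groups enter the contrast that chose the genes, these shares describe the 285 and test nothing. The 12 genes changed in fed mice included Mat1a, Slc16a5, the constitutive androstane receptor Nr1i3, Ttpa, which exports vitamin E, and the fatty acid carrier Fabp5.

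**Figure D4:**
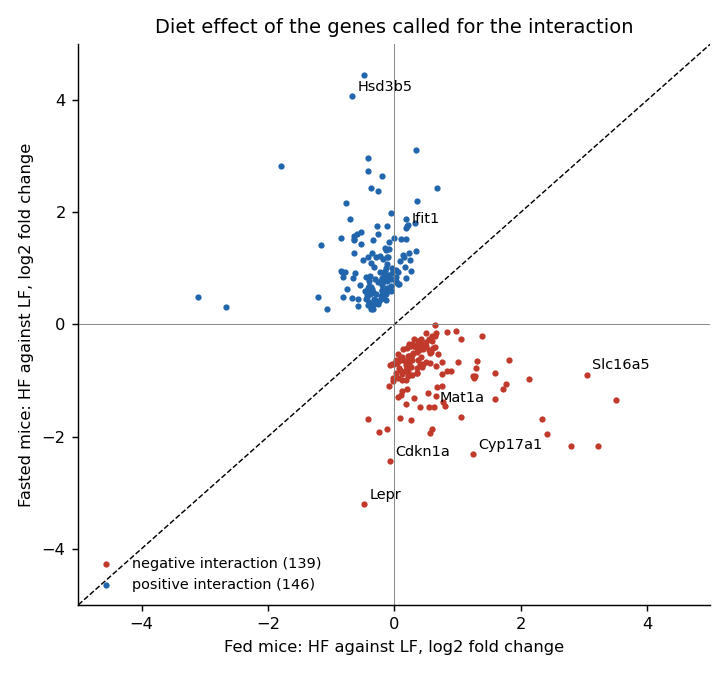
HF against LF log2 fold change in fed mice (x axis) and in fasted mice (y axis) for the 285 genes, coloured by the sign of the difference between fasting responses. The spread along the fasted axis is wider, with medians of -0.724 and 0.851 for the 2 colours against 0.378 and -0.252 along the fed axis.

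WT and KO mice shared the direction of the contrast for most genes. In the model of all 8 groups, the contrast had the same sign in WT and in KO mice for all 285 genes, which the average that chose them favours. For a difference of the contrast between genotypes 0 genes (0.00%) passed in edgeR, DESeq2 and voom, with 408 genes at an unadjusted p under 0.05 in edgeR, 22 of the 285 among them. To repeat the measure in mice not used for choosing, the genotypes were fitted separately over 10714 genes. Of 309 genes with an unadjusted p under 0.01 in WT mice, 276 (89.3%) had the same sign in KO mice, and of 336 chosen in KO mice 309 (92.0%) had the same sign in WT mice. Over all 10714 genes the share was 59.4%. Among the 6 called chaperones the smallest p values for a genotype difference were those of Hsp90b1 and Hyou1: the contrast of Hyou1 was 0.35 in WT and 2.72 in KO mice (unadjusted p of the difference = 0.00414), and that of Hsp90b1 0.09 and 1.48 (0.00263). For Mat1a it was -2.39 and -1.83, and for Pdia6 1.16 and 1.77.

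**Figure D5:**
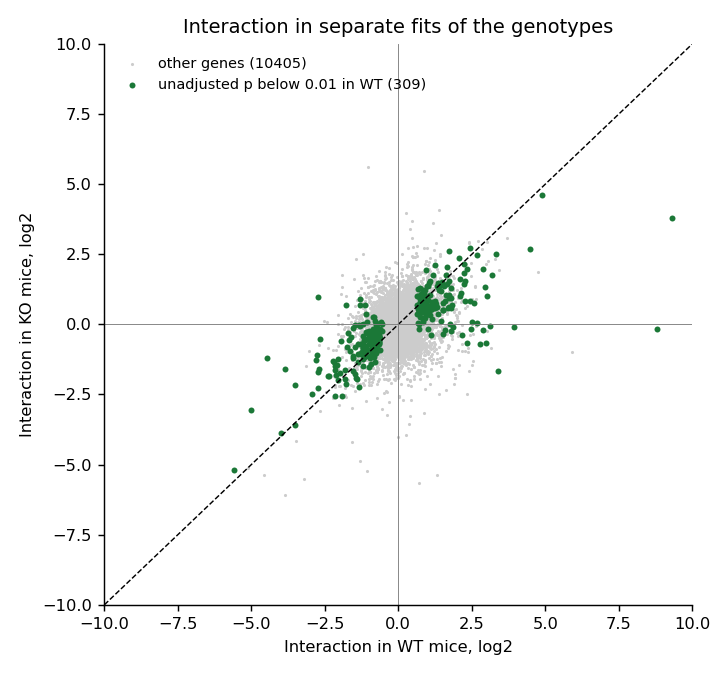
Interaction log2 fold change fitted in WT mice (x axis) and in KO mice (y axis) for 10714 genes, with the genes chosen in WT mice at an unadjusted p under 0.01 in colour. Of the 309 coloured genes 276 share their sign with the KO mice, and 3 genes lie outside the axes.

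Libraries were run in 2 lanes, and the WT LF fed mice used here were all in lane 8, which leaves 2 KO mice as the LF fed mice of lane 7. Within each lane a model of the 4 diet and feeding groups with genotype as a term was therefore fitted, and its contrast is not the average over genotypes used elsewhere. Within lane 7 the contrast kept its sign for 281 of the 282 genes that could be tested, and within lane 8 for 279 of 279, though these mice also chose the genes. 24 genes passed in lane 7 alone and 17 in lane 8 alone. For the fasting response on HF, 0 genes passed in lane 7 and 316 in lane 8. Of the genes with a mean fasting response in each lane, 97.4% had the smaller response on HF in lane 7 and 74.9% in lane 8. With lane as a term in the model 252 genes passed, 231 of them among the 285. Named calls lost with that term included Acadl, Acaa1a, Acot3, Cyp4a10, Hsd17b13, Got1, Gpt, Csad, Per1, Nqo1, Sqle and Ppp1r3c. Hsp90b1, Ghr, Fga, Fgb, Fgg, Ifit1, Stt3a and Rpn1 lost theirs as well. The adjusted p values of these genes ran from 0.0518 for Csad to 0.1 for Fgg. Leaving out each mouse in turn gave 170 to 333 calls, with the lowest counts without WT LF fed replicate 3 (170) and without KO HF fasted replicate 1 (178). 131 of the 285 passed in every such fit, and all 285 kept their sign. Mat1a, Por, Plin5, Arg1, Nudt7, Hsd3b5, Stard4, and Pdia6 were among those called in all 30, and each of them also passed with the proliferation library put back and without the 2 mice with pancreas transcripts. Other named calls were lost in these sets of mice. With the proliferation library put back, the calls lost beside those given above were Cpt1a, Acadl, Acot1, Acot3, Cyp4a10, Cyp4a31, Angptl4, Cidec, Hsd17b13, Apoa4, Gpt, Csad, Cdkn1a, Per1, Nqo1, Srxn1, Scap, Cyp8b1, Abcb11, Nr0b2, Ppp1r3c, Hsp90b1, Ghr, Angptl8 and Iigp1, with adjusted p values from 0.0515 for Acadl to 0.767 for Srxn1. Without the 2 mice with pancreas transcripts they were Cpt1a, Cpt2, Acadl, Acaa1a, Pex11a, Acot3, Cyp4a10, Angptl4, Cidec, Hsd17b13, Got1, Gpt, Csad, Per1, Nqo1, Cyp3a13, Sqle, Nr0b2, Ppp1r3c, Hyou1, Ghr and Ifit1, from 0.05 for Cidec to 0.128 for Sqle. In voom Acot3, Cyp4a31, Per1, Nqo1 and Sqle lost their calls, with adjusted p values of 0.159, 0.125, 0.256, 0.0725 and 0.161.

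Some genes induced by interferon stood higher in HF fasted than in LF fasted mice, and they were picked after their values were seen. Ifit1, which binds foreign RNA, stood at 5.802 to 29.33 CPM in LF fasted mice (median 10.18) and at 28.59 to 57.02 CPM in HF fasted mice (median 38.71), against 4.806 to 21.28 CPM in LF fed mice and 9.236 to 24.36 CPM in HF fed mice. HF fasted mice were all above HF fed mice, and the fasted groups met at 1 edge of their ranges. The difference was 1.53 ± 0.422 (SE, adjusted p = 0.0474), and it held in 6 of the 30 fits without 1 mouse. Isg15, a ubiquitin-like interferon product, fell by 1.04 on LF and had a change of 0.52 on HF (adjusted p of the difference = 0.00163, called in all 30 fits). Ifit3b, Rtp4 and Ifitm3 had differences of 1.54, 1.45 and 0.76, with adjusted p values of 0.00759, 0.0109 and 0.00615. The 12 macrophage markers all had a contrast above 0, but 0 passed in edgeR, DESeq2 and voom and 2 had an unadjusted p under 0.05 in edgeR. They summed to 529.7 to 750.2 CPM in LF fed mice (median 642.9) and 340.3 to 742.5 CPM after the LF fast (median 402). The sums were 586.8 to 734.3 CPM in HF fed mice (median 613.2) and 445.9 to 1003 CPM after the HF fast (median 542.3), and their part in these values was not tested.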

How the data were processed

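Liver RNA of 32 mice was sequenced as 3′ end libraries (QuantSeq). The authors aligned reads to GRCm38 with HISAT 0.1.5, handled alignments with SAMtools 1.2 and deposited raw counts per gene from HTSeq 0.6.1p1 (union mode). The strand setting of the counting and the unit of the age label are not given in the sources used here. Gene positions came from the annotation of GRCm38, which matched 19918 of 20076 genes. Counts were tested with edgeR 4.0.16 (R 4.3.3, limma 3.58.1): filterByExpr, TMM scaling, robust quasi-likelihood fit with 1 mean for each of 8 genotype, diet and feeding groups over 30 mice (22 residual degrees of freedom), Benjamini-Hochberg adjustment over 11566 genes and a threshold of 0.05. Fold changes are edgeR's fitted values with a prior count of 0.125. CPM of single genes used TMM library sizes, and CPM of summed markers used library sizes without TMM factors. Contrasts of the 8-group model were averaged over WT and KO with equal weight, and fits within a lane used the 4 diet and feeding groups with genotype as a term. Alternatives were DESeq2 1.42.0, voom, other scalings and filters, lane, age or replicate number as a term, other sets of mice and leaving out each mouse.

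The members and gene lists were chosen with earlier results of these data known. Named genes were the 15 with the smallest p in each direction, called members of the lists, and listed metabolic genes whatever their result, and genes picked later are said to be. Some genes that the rule named are not reported here. The labels and methods describe separate mice, so p-values reflect the spread between mice. No pair of mice agreed within sampling noise (chi-square per gene 4.17 to 55.6 over 42 pairs). In data simulated for this contrast with a dispersion of 0.1, 10% of 200 genes changed by 1 on the log2 scale were recovered among 11165 tested, and 88.5% of 200 changed by 2 among 11107, with 3.28% of 183 calls wrong.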

Additional observations from a re-analysis of the deposited data

Results flagged for a closer look

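The fasting effect differed between diets for 285 genes, which are described above. The values below stood apart from the other mice of their group by Dixon's criterion at the 95% level, computed on log2(CPM + 0.5). 148 groups of values were examined and 9 stood out, where chance gives about 1 in 20. Hsd3b5 in WT HF fed replicate 3 was 53.93 CPM, with the next value at 130.9, and Serpina12 in the same mouse was 58.99 CPM, with the next at 91.5. Insig1 in WT LF fed replicate 1 was 41.34 CPM, with the next at 87.56, and Serpina12 in KO LF fasted replicate 4 was 8.212 CPM, with the next at 21.63.

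Summed markers stood out as well. Acinar pancreas markers were 19150 CPM in WT HF fasted replicate 2 (next 25.26) and 2857 CPM in KO HF fed replicate 1 (next 38.99), and the latter mouse also had 439.3 CPM of adipose markers (next 151.8). Hepatocyte markers were 87100 CPM in KO HF fed replicate 4 (next 75070) and erythroid markers 1144 CPM in KO LF fasted replicate 1 (next 697). In the 2 libraries left out, proliferation markers were 807 CPM in WT LF fed replicate 2, against at most 148.1 in the mice used. Heart and muscle markers were 40110 CPM in KO HF fasted replicate 4. Among the mice used they were 1359 CPM in KO HF fed replicate 1, 714.2 in WT HF fed replicate 4 and 319.6 in WT HF fasted replicate 4. In LF fed mice they were at most 42.41 CPM and in LF fasted mice at most 27.01. Their part in the results was not tested.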

How the results depend on the processing

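The 285 calls became 435 with DESeq2 (278 shared), 22 with all 32 mice, 152 with 31 mice (the heart-like library left out), 156 without the 2 mice with pancreas transcripts (chosen after seeing the data), 24 within lane 7 and 17 within lane 8. They were 22 for the contrast in WT mice alone and 60 in KO mice alone, 445 at an adjusted p of 0.1 and 686 at an unadjusted p of 0.01. Leaving out each mouse gave 170 to 333. All 285 kept their sign with DESeq2, voom, other scalings, without the filter and with lane or age as a term, and 280 of 283 did with all 32 mice. The fasting calls on LF were 759 in lane 7 and 1311 in lane 8. Those on HF were 123 with all 32 mice, 0 in lane 7, 316 in lane 8 and 181 to 383 without 1 mouse. The mean fasting effect had 794 calls in lane 7. The diet calls in fed mice were 104 with DESeq2, 2 with all 32 mice, 18 with 31, 47 with age as a term, 0 in lane 7, 60 in lane 8 and 13 to 55 without 1 mouse. Those in fasted mice were 293 with all 32 mice, 223 in lane 7 and 84 in lane 8. In smaller sets fewer mice were compared. For fasting on HF, however, lane 7 held 5 HF fed and 4 HF fasted mice, and lane 8 held 3 and 3. The cause of that shift, and of those in the other sets, was not tested. The sign turned for Igfbp1 (0.53) within lane 8.

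Replicate numbers did not pair the mice: deviations of same-numbered mice had a median correlation of 0.00287 over 98 pairs, 3 of them over 0.1, and 5 of 30 mice correlated best with their own number. With the replicate number as a block 236 genes passed, 226 of them among the 285. In the simulation the dispersion was set to 0.1 for every gene and not estimated from these mice. Under that setting differences of 1 on the log2 scale were seldom recovered. Among the 285 calls the median contrasts were -1.02 and 1.08, and genes without a call may still differ by 1.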

Other observations

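Beyond the listed chaperones, other genes of protein entry and quality control in the endoplasmic reticulum had calls of the same sign. They were picked after their values were seen, apart from Sec61b, a subunit of the translocation channel, which was among the 15 smallest p values and fell by 1.87 on LF against a value of -0.43 on HF. The oligosaccharyltransferase subunits Ddost, Stt3a and Rpn1 fell by 1.39, 0.87 and 1.07 on LF, against -0.40, -0.14 and -0.27 on HF. These calls held in 29, 18 and 23 of the 30 fits without 1 mouse, and were lost without the 2 mice with pancreas transcripts (adjusted p = 0.0649, 0.117 and 0.0743). That of Rpn1 was also lost with the proliferation library put back (0.0707). The stress sensors Ern1 and Eif2ak3, which encode IRE1α and PERK, fell by 1.20 and 1.24 on LF, against values of -0.11 and 0.24 on HF, with differences of 1.09 and 1.48 (adjusted p = 0.00498 and 0.0117). Edem1 and Sel1l, which take misfolded proteins out of the compartment, had differences of 0.84 and 0.73, and the cyclophilin Ppib of 0.92. The call for Sel1l held in 23 of the 30 fits, and was lost without the 2 mice (adjusted p = 0.0808) and with the proliferation library put back (0.0987).

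Lepr, the leptin receptor, was also picked after its values were seen. It stood at 4.809 to 32.09 CPM in LF fasted mice (median 21.46), and at 1.374 to 5.633 CPM in LF fed, 0.6412 to 4.171 CPM in HF fed and 0.7523 to 3.468 CPM in HF fasted mice. Lepr rose by 2.73 on LF against a value of 0.01 on HF, a difference of -2.72 ± 0.589 (SE, adjusted p = 0.00759), which passed in edgeR and DESeq2 but not in voom (adjusted p = 0.193). All LF fasted mice were above all HF fasted mice, and the lowest LF fasted mouse lay within the LF fed range. Nr3c1, the glucocorticoid receptor, fell by 0.78 on LF against a value of -0.05 on HF (adjusted p of the difference = 0.0183, and 0.0671 with the proliferation library put back).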
